A study of Mus musculus with 9 samples.

Results

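The genes described here are 10 AP-1 and immediate early genes, 8 of which encode leucine zipper transcription factors of or close to the AP-1 complex. They were taken by name: Fos, Fosb, Fosl1, Fosl2, Jun, Junb, Jund, Atf3, Egr1 and Ier3. All 10 were among the 17132 genes of the deposited pancreas table, and 9 of them were among the 12828 genes that passed a filter on low counts. Fosb did not pass it and was not tested. Messenger RNA of whole pancreas was measured in 9 C57BL/6 mice of 22 to 25 g, 3 in each of 3 groups. QYD mice received 7 hourly intraperitoneal injections of caerulein with lipopolysaccharide (LPS) added at the last, and Qingyi Decoction, a herbal medicine, at 0 and 8 h. Model mice received the same caerulein and LPS with saline in place of the decoction. Control mice received saline throughout, and pancreas was taken from each mouse 24 h after the first injection. Caerulein is a cholecystokinin analogue that overstimulates the enzyme-secreting acinar cells, and LPS is a bacterial cell wall component, so the injured groups model acute pancreatitis by chemical induction in otherwise healthy wild-type mice. The sources used here do not give the age or sex of the mice.

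On build GRCm38.p6 of the RefSeq annotation, Fos lies at chr12:85473890-85477274, Fosl2 at chr5:32136472-32157840, Fosl1 at chr19:5447698-5455938, Jun at chr4:95049036-95052222, Ier3 at chr17:35821713-35822911 and Atf3 at chr1:191170296-191183333. Junb (chr8:84976909-84978748) and Jund (chr8:70697739-70700616) share a chromosome.

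AP-1 is a dimer. Fos proteins (Fos, Fosb and the Fos-like proteins encoded by Fosl1 and Fosl2) pair with Jun proteins (Jun, Junb, Jund) through a leucine zipper and bind DNA at the TPA response element, and Jun proteins can also pair among themselves or with ATF proteins such as ATF3. Immediate early genes are transcribed within minutes of a stimulus without new protein synthesis, through MAP kinases acting on factors already bound to their promoters, and their transcripts are usually short-lived. In rodent pancreas, caerulein is known to induce Fos, Jun and Egr1 soon after injection. Pancreas was taken here well after that early period.

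Promoter sequence is shown for 6 of the genes, 4 that rose and 2 that did not pass the test in injured pancreas, because immediate early induction acts through short sites just before the transcription start. The windows are the 250 bases before the RefSeq start on build GRCm38.p6, written 5′ to 3′ on the strand of the gene. Windows of 8 of the 10 genes were searched, and those of Fosl1 and Egr1 were not. The searched window of Fosb, chr7:19310046-19310295 on the minus strand, reaches into the gene, whose RefSeq span ends at 19310118. Capitals mark matches on either strand to any of 5 motifs: the AP-1 element TGANTCA, the related 8-base form TGANNTCA, the TGACG core of the cyclic AMP response element, the CArG box of serum response factor and the kappa B motif of NF-kB.
Fos (chr12:85473640-85473889, plus strand): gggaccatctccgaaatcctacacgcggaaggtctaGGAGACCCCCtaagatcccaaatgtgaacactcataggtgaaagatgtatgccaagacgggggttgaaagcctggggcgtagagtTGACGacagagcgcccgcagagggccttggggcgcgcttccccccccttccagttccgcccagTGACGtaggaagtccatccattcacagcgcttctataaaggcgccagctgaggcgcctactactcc
Junb (chr8:84978749-84978998, minus strand): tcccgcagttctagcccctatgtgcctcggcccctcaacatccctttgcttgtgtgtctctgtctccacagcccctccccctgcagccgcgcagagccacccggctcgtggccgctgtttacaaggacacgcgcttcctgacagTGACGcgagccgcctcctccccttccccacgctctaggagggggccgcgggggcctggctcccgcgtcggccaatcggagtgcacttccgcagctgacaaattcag
Fosl2 (chr5:32136222-32136471, plus strand): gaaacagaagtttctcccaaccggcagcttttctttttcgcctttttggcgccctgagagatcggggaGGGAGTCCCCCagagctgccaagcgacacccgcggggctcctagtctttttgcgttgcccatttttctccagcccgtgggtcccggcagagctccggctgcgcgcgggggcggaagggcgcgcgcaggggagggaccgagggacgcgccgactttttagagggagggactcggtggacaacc
Ier3 (chr17:35821463-35821712, plus strand): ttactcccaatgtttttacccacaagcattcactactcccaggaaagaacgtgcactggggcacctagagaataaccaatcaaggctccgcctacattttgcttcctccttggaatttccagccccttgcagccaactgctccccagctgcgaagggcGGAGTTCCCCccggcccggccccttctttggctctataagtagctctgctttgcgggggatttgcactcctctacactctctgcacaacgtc
Jun (chr4:95052223-95052472, minus strand): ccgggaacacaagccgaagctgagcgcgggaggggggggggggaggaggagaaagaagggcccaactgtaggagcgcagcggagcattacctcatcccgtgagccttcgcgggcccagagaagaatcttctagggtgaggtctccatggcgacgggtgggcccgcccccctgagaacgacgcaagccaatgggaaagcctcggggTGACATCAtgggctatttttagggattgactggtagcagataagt
Atf3 (chr1:191183334-191183583, minus strand): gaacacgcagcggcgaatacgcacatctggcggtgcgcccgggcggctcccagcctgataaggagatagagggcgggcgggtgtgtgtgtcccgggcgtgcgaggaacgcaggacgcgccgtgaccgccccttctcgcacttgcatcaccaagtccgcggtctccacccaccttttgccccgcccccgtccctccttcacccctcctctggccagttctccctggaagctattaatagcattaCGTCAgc
The core TGACG was in 4 of the 8 windows (Fos, Fosb, Junb and Atf3), against 17.8% of 32851 promoter windows of the same length. In Fos it lay at bases -129 to -125 and -66 to -62 before the start. In Fosb it lay at bases -60 to -56 of the window, in the part inside the RefSeq span of the gene. The kappa B motif was in 4 of 8 (Fos, Fosb, Fosl2 and Ier3), against 7.25% of all windows. TGANNTCA was in 2 of 8, Jun and Jund, against 11.9%, and neither TGANTCA (6.75% of all windows) nor the CArG box (1.47%) was in any of the 8. The bases G and C made up 61.2% to 68.8% of the windows of Fosb, Junb, Atf3, Fosl2 and Jun. They made up 58.4% in Fos, 54.4% in Ier3 and 47.6% in Jund, against a median of 52.4% over all windows. Shares among windows of like base composition were not taken, so these shares are not a measure of enrichment. These matches describe letters in the windows and were not tested for binding, and an overlap of 2 kappa B matches in Fosl2 is shown as 1 run of capitals. Bases further than 250 before the start were not searched, so a motif with no match here may still lie outside the windows. Egr1 and Fosl1 are not among the 8.

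Libraries held 19112923 to 20212744 estimated counts. A panel of 10 acinar enzyme genes took 22.0% to 23.0% of counts in QYD, 23.6% to 26.8% in Model and 33.6% to 39.9% in Control, so pancreas was recognisable in each library. Levels are CPM, counts scaled to one common total per library, after correction for such shifts in composition (TMM, trimmed mean of M values). Fold changes on this scale are read against the typical gene. With library size as the only scaling, the median log2 fold change of all genes was 2.19 for Model versus Control, against 0.04 on the TMM scale, and 2.09 against 0.06 for QYD versus Control. In whole tissue, a different number of cells of a type and a different amount of RNA per cell cannot be told apart.

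Model versus Control compares injured with saline-treated pancreas at 24 h. Of the 9 tested genes 6 rose and none fell: Fos, Fosl1, Fosl2, Junb, Egr1 and Ier3. Over all 12828 genes 42.6% were called, 21.3% higher and 21.3% lower, at an adjusted p under 0.05. The median log2 fold change was 1.74 for the 9 genes and 0.04 for all genes. The same 6 did not overlap between the groups, against 52.3% of all genes. With library size as the only scaling all 9 passed as higher, as did 12064 of all genes with 121 lower, so the share of higher calls was 99.0% there and 50.1% on the TMM scale. The count ran from 5 genes without Control 44 to 7 without Model 59.

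Among the genes of the Fos proteins, 3 rose in Model pancreas. Fos stood at 3.32, 3.04 and 2.31 CPM in the Model mice, against 0.559, 0 and 0.89 CPM in Control. Fosl2, whose product Fra-2 lacks the strong activation domain of Fos, stood at 20.3, 16.9 and 17.6 CPM in Model, against 4.61, 5.09 and 7.50 CPM in Control. Fosl1, which encodes Fra-1, stood at 1.69, 0.715 and 0.345 CPM in Model, against 0, 0 and 0.127 CPM in Control. The 2 groups did not overlap for any of these 3 genes. The log2 fold change was 2.58 ± 0.52 (SE) for Fos (adjusted p = 0.00248 by the quasi-likelihood test of edgeR) and 1.67 ± 0.19 for Fosl2 (adjusted p = 8.26e-05, the same edgeR test). Fos had no count in Control 44, and its value was 1.98 without Control 44 and 3.41 without Control 45. For Fosl1 the adjusted p in edgeR was 0.0139, and its Control libraries together held 1 count after rounding, against 93 in Model. That is a ratio of 21.8 on the TMM scale with a 95% counting interval of 3.82 to 871. With voom weights in limma the adjusted p of Fosl1 was 0.0564, and in edgeR it was 0.0507 without Control 43 and 0.0555 without Control 44, where the call was lost. Its ratio was at least 4.77 without Control 45, counted from a floor of 3 counts over the remaining Control mice, and its fitted log2 fold change of 4.25 was 3.46 without Model 56. Of the 2033 exon bases of Fosl1, 1163 also lie in exons of Ccdc85b on the other strand, and 7 of its 9 estimated counts were not whole numbers. On the TMM scale Ccdc85b had a log2 fold change of -0.63 ± 0.20 (edgeR, adjusted p = 0.0267). The part of the shared exon bases in the counts of Fosl1 was not tested.

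Fosb, the remaining Fos gene, was barely detected. It had 12, 7 and 4 counts in Model, against 3, 1 and 1 in Control. The ratio of the summed counts was 1.08 on the TMM scale, with a 95% counting interval of 0.401 to 3.63, so relative to the typical gene no difference was detectable at this depth. On library size alone it was 4.80 (1.78 to 16.1).

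The 3 genes of the Jun proteins parted ways. Junb, whose product is often a weaker activator than Jun and can oppose it, stood at 37.1, 24.5 and 24.8 CPM in Model, against 8.67, 4.84 and 7.50 CPM in Control, and rose by 2.05 ± 0.23 on the log2 scale (4.13-fold, 95% interval 2.90 to 5.88, edgeR, adjusted p = 8.09e-05). Jun, the strongest activator of these 3, stood at 12.3, 9.71 and 9.59 CPM in Model, against 9.36, 9.80 and 6.23 CPM in Control. Jund, which many resting cells express steadily, stood at 39.0, 23.3 and 31.4 CPM in Model, against 30.9, 32.9 and 30.8 CPM in Control. Model and Control overlapped for Jun and for Jund, and did not for Junb. The log2 fold change was 0.32 ± 0.19 for Jun (95% interval -0.09 to 0.73) and -0.01 ± 0.17 for Jund (95% interval -0.38 to 0.36), and neither passed (edgeR, adjusted p = 0.188 and 0.96). On library size alone all 3 passed as higher, with 4.21 for Junb, 2.48 for Jun and 2.14 for Jund, where the last 2 lie close to the median gene. Antisense genes overlap part of the exons of both Jun (Junos, 232 bases) and Jund (Gm11175, 877 bases), 173 exon bases of Junb also lie in exons of the protein-coding Prdx2 on the other strand, and the sources used here do not say whether reads were counted by strand.

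Atf3 encodes a stress-induced ATF protein that pairs with Jun proteins and often represses. It stood at 4.15, 2.95 and 1.79 CPM in Model, against 2.24, 0.764 and 1.53 CPM in Control. Model 59 lay below Control 43, so the groups overlapped, and the log2 fold change of 0.99 ± 0.41 did not pass (edgeR, adjusted p = 0.0702). It passed without Control 43 (1.38, edgeR, adjusted p = 0.0452) and without Model 59 (1.25, edgeR, adjusted p = 0.0215). Its value was 0.67 without Control 44 (adjusted p = 0.236 in edgeR), 0.67 without Model 56 (adjusted p = 0.22 in edgeR) and 0.88 with limma-voom (adjusted p = 0.184). Egr1, a zinc finger factor induced by the same kinases but outside AP-1, stood at 24.5, 14.4 and 12.3 CPM in Model, against 9.92, 2.16 and 3.56 CPM in Control. Ier3, which encodes a small protein of stress and survival signalling that NF-kB also induces, stood at 36.3, 12.3 and 12.4 CPM in Model, against 2.24, 1.27 and 4.32 CPM in Control. Each Model mouse was above each Control mouse for both genes. Egr1 rose by 1.74 ± 0.43 (edgeR, adjusted p = 0.00738), and by 2.58 without Control 43. Ier3 rose by 2.96 ± 0.56 (edgeR, adjusted p = 0.00158), and by 2.24 without Model 56 and 3.55 without Control 45.

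**Figure D1:**
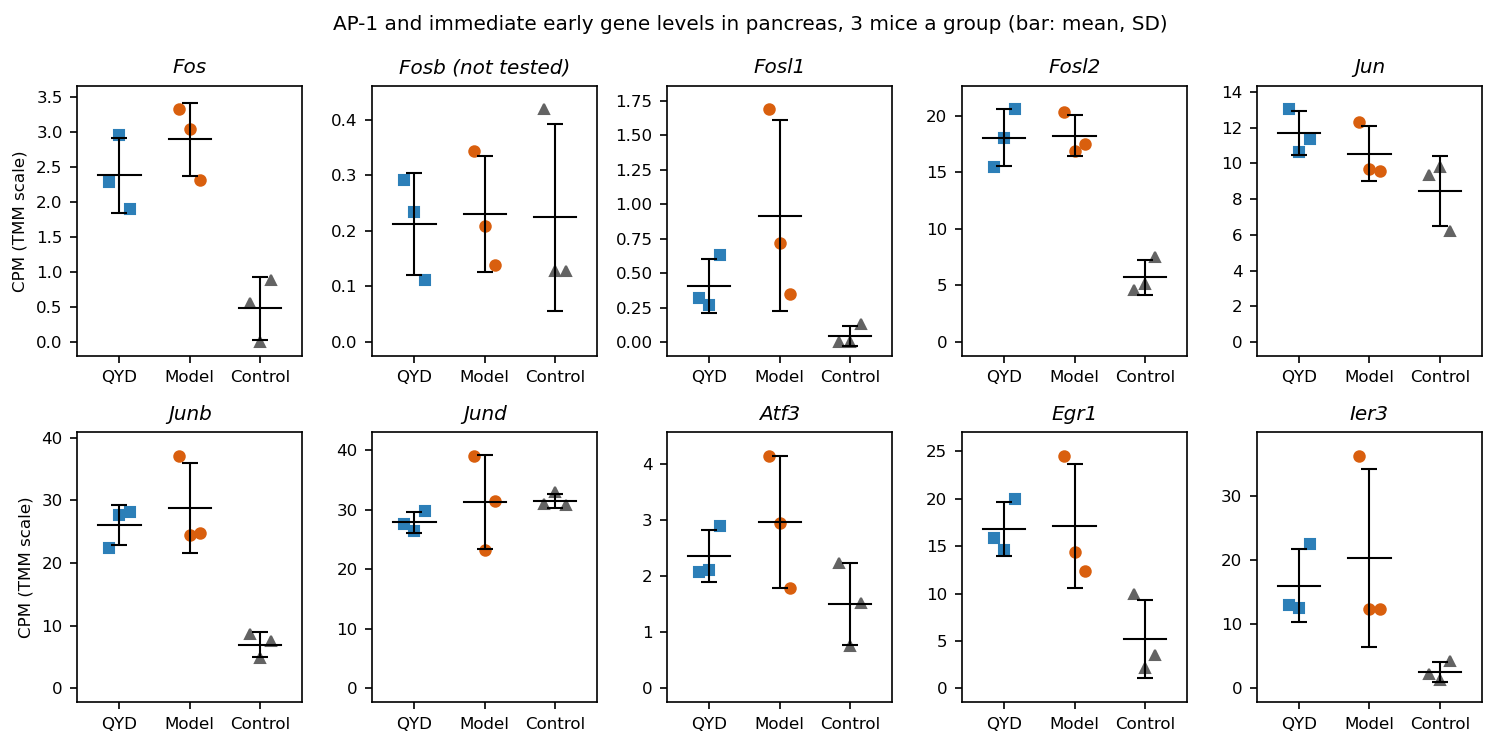
Levels of the 10 genes in CPM on the TMM scale (vertical axes, linear) in QYD, Model and Control pancreas, with 1 point per mouse and black bars for the mean and SD. For Junb every injured mouse lay above the Control mice, which ran from 4.84 to 8.67 CPM, while Jund ran from 23.3 to 39.0 CPM in Model and from 30.8 to 32.9 CPM in Control.

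Model 56 had the highest level of the Model mice in 9 of the 9 tested genes, on the TMM scale and on library size alike. Among all 6 injured mice it was highest for 7 of the 9. Its Ier3 level was 36.3 CPM, against 12.3 and 12.4 CPM in the other Model mice. The summed markers of neutrophils, macrophages and ducts were higher in both injured groups than in Control. Those of neutrophils and ducts were highest of the Model mice in Model 56, while those of macrophages were highest in Model 57. Of 15 neutrophil markers 14 rose in Model versus Control and none fell, and their summed level was 188 to 350 CPM in QYD, 165 to 226 CPM in Model and 11 to 52.3 CPM in Control, with Model 56 at 226 and Control 45 at 52.3. None of these markers was at 0 in an injured mouse, whereas Trem1 had no count in Control 43 and Control 44, Cxcr2 none in Control 44 and Camp none in Control 45. Of 14 macrophage and monocyte markers 7 rose and 1 fell, and their sums were 311 to 341 CPM in QYD, 240 to 401 CPM in Model and 124 to 217 CPM in Control, with none at 0. In each injured library Cd14 and Itgam had the most counts of these markers, and in each Control library Lyz2 did. Cd14 had 2890 to 4063 counts in Model, against 39 to 243 in Control, and Itgam 1094 to 2322, against 28 to 167. Sums without Cd14 and Itgam were not taken. Of 9 duct markers 6 rose and 1 fell, and their sums were 1340 to 2460 CPM in QYD, 1590 to 2650 CPM in Model and 577 to 756 CPM in Control, with none at 0 and Model 56 at 2650. No B cell marker (8 tested) or T and NK cell marker (5 tested) passed, but the B cell sums split the libraries within groups, with 28.8, 32.3 and 2.38 CPM in QYD 65, 66 and 68, 1.35, 22.5 and 0.862 CPM in Model 56, 57 and 59, and 25.9, 6.37 and 7.50 CPM in Control 43, 44 and 45. Among 10 fibroblast markers 3 rose and 2 fell, and among 8 endothelial markers 2 rose and 1 fell. The fibroblast and endothelial sums overlapped between Control (281 to 389 and 49.5 to 71.4 CPM) and Model (287 to 482 and 54.6 to 77.1 CPM). In Model versus Control 93.3% of neutrophil, 57.1% of macrophage and monocyte and 77.8% of duct markers were called. For fibroblast markers the share was 50.0% and for endothelial markers 37.5%, against 42.6% of all genes. On the TMM scale 10 of 10 acinar enzymes and 6 of 7 islet markers fell, with median log2 fold changes of -3.36 and -1.68, while on library size the islet median was 0.50. The part of these cell types in the levels of the 10 genes was not tested.

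**Figure D2:**
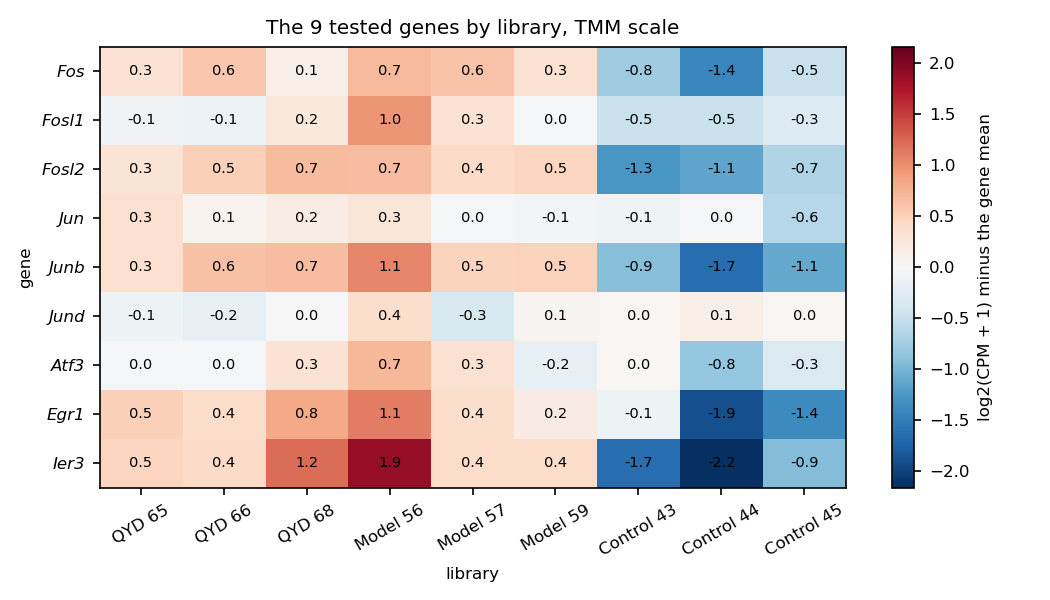
The 9 tested genes (rows) in each library (columns), as log2(CPM + 1) on the TMM scale minus the mean of the gene over the 9 libraries, in red above and in blue below that mean. The column of Model 56 is the highest of the Model columns in all 9 rows, and the Jund row stays near 0 in the Control columns.

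The make-up of the family was compared within each library, which needs no scaling between libraries, on TPM, the unit deposited by the authors that accounts for transcript length and gives each library one common total. Junb took 41.5% to 47.3% of the summed TPM of the 7 Fos and Jun genes in QYD, 43.2% to 46.8% in Model and 15.0% to 24.6% in Control. Jund took 28.1% to 31.8% in QYD, 27.3% to 34.0% in Model and 54.6% to 63.1% in Control. Junb and Jund thus changed places as the most abundant of the family, without overlap between either injured group and Control. Jun took 11.4% ± 1.88 (SD, n = 3) in QYD, 9.43% ± 0.776 in Model and 14.1% ± 3.34 in Control. The Fos genes together took 13.8% ± 0.596 in QYD, 14.5% ± 1.48 in Model and 6.94% ± 2.63 in Control, most of it Fosl2, at 9.27%, 8.78% and 5.11% on average. With 3 against 3 libraries an exact two-sided permutation test cannot go below p = 0.10, so these shares are given as a description.

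**Figure D3:**
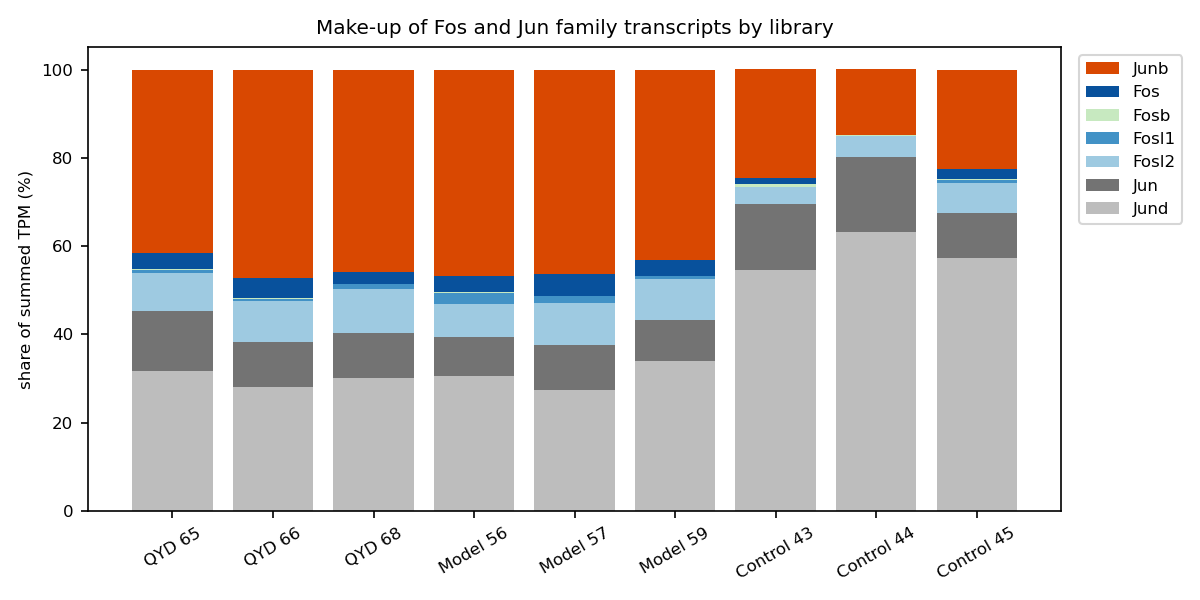
Share of the summed TPM of the 7 Fos and Jun genes (vertical axis, percent) taken by each gene in each of the 9 libraries, as stacked bars. Junb (top segment) takes 41.5% to 47.3% in QYD, 43.2% to 46.8% in Model and 15.0% to 24.6% in Control, and Jund (bottom segment) is the largest in Control.

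Ordered by mean TPM, Ier3 led in QYD (27.0 ± 6.00, SD, n = 3) and in Model (40.5 ± 30.8), the second through Model 56, while Jund led in Control (4.57 ± 0.287). In Control, the ranges of every other pair of neighbours in the order overlapped: Junb at 1.63 TPM, Jun at 1.1, Ier3 at 1.09, Egr1 at 0.693, Fosl2 at 0.403, Atf3 at 0.323, Fos at 0.10, Fosb at 0.03 and Fosl1 at 0.0167. In Model, Ier3 was followed by Junb at 31.6 TPM, Jund at 21.1, Egr1 at 11, Jun at 6.44, Fosl2 at 5.93, Atf3 at 3.05, Fos at 2.76, Fosl1 at 1.13 and Fosb at 0.13, and neighbours separated only between Fosl2 and Atf3 and between Fosl1 and Fosb. Without Model 56, Junb led in Model with a mean of 25.5 TPM and Ier3 followed with 22.7, and Junb was above Ier3 in both Model 57 and Model 59. In QYD, Ier3 was followed by Junb at 25.1 TPM, Jund at 16.9 and Egr1 at 9.43, with overlapping ranges for Ier3 and Junb. The largest gap was in QYD 68, with Ier3 at 33.11 TPM and Junb at 23.19. In QYD 65 Ier3 stood at 26.86 and Junb at 25.87 TPM, and in QYD 66 Junb was above, at 26.18 against 21.11 TPM.

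QYD versus Model asks what the decoction changed in injured pancreas. None of the 9 tested genes passed in edgeR, against 0% of all genes, and none was separated between the groups, against 16.7% of all genes. Over all genes DESeq2 also called 0 and limma-voom called 1, which is none of the 9. Junb stood at 22.3, 27.6 and 28.2 CPM in QYD, against 37.1, 24.5 and 24.8 CPM in Model. Its log2 fold change was -0.15 ± 0.20, with a 95% interval of -0.58 to 0.29. Ier3 stood at 13.0, 12.5 and 22.5 CPM in QYD, against 36.3, 12.3 and 12.4 CPM in Model, a value of -0.35 ± 0.42 (95% interval -1.27 to 0.57) that was 0.37 without Model 56. Both QYD 68 for Ier3 and Model 56 stood above the other mice of their groups. Egr1 stood at 15.9, 14.6 and 20.0 CPM in QYD, against 24.5, 14.4 and 12.3 CPM in Model, and its log2 fold change was -0.03 ± 0.36 (95% interval -0.81 to 0.75), against 0.33 without Model 56. Fos stood at 2.28, 2.95 and 1.90 CPM in QYD, against 3.32, 3.04 and 2.31 CPM in Model, with a log2 fold change of -0.28 ± 0.34. The groups overlapped for each of these genes.

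The lowest value was that of Fosl1, which had 0.322, 0.268 and 0.633 CPM in QYD, against 1.69, 0.715 and 0.345 CPM in Model. Its log2 fold change of -1.19 ± 0.57 (95% interval -2.46 to 0.07, edgeR, adjusted p = 0.826) was -0.40 without Model 56. Intervals were narrower for the better expressed genes, at -0.37 to 0.33 for Fosl2, -0.22 to 0.51 for Jun and -0.52 to 0.19 for Jund, and wider for Atf3, at -1.05 to 0.37. Of the 9 values 8 were negative, with a median of -0.17, but without Model 56 only 3 were negative (Fos, Fosl1 and Atf3) and the median was 0.068. No member had an unadjusted p below 0.05 in edgeR, DESeq2 or limma-voom (0 of 9, 0 of 10 with Fosb, and 0 of 9), against 750 of all genes in edgeR (5.85%). In edgeR Fosl1 had one on library size alone, with no filter on low counts, and without Model 59 or QYD 68. Jund had one in edgeR without Model 57, at a log2 fold change of -0.34. A p that misses the threshold does not show that the groups were alike, and a log2 fold change of -1 lies outside the intervals of Fosl2, Jun, Junb, Jund and Egr1 but inside those of Fos (-1.02 to 0.46), Fosl1, Atf3 and Ier3. Fosb had 10, 7 and 3 counts in QYD, against 12, 7 and 4 in Model.

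QYD versus Control shares its Control mice with the first comparison. Of the 9 tested genes 5 rose and none fell, against 40.7% of all genes called, 20.5% higher and 20.3% lower. Junb rose by 1.90 ± 0.23 (edgeR, adjusted p = 0.000152), Fosl2 by 1.65 ± 0.19 (edgeR, adjusted p = 0.000106), Fos by 2.29 ± 0.53 (adjusted p = 0.00577 in edgeR), Egr1 by 1.71 ± 0.43 and Ier3 by 2.61 ± 0.56 on the log2 scale. Without Control 44 Fos stood at 1.70, without Control 45 Fos stood at 3.13 and Ier3 at 3.20, and without Control 43 Egr1 stood at 2.56. Fosl2 stood at 15.5, 18.1 and 20.6 CPM in QYD, against 4.61, 5.09 and 7.50 CPM in Control. Fosl1 did not pass (edgeR, adjusted p = 0.0907), with 36 summed counts in QYD, against 1 in Control, a ratio of 9.06 with a counting interval of 1.53 to 368. It passed without Model 56 (adjusted p = 0.0473 in edgeR) and on library size alone, and its fitted log2 fold change of 3.06 ran from 2.52 without Control 44 to 6.37 without Control 45, where the ratio from a floor of 3 counts over the group was at least 1.98. Without Control 43, Control 44, Model 57 or QYD 68 its unadjusted p was not below 0.05. Jun stood at 13.0, 10.6 and 11.4 CPM in QYD, against 9.36, 9.80 and 6.23 CPM in Control, and Jund at 27.5, 26.3 and 29.7 CPM in QYD, against 30.9, 32.9 and 30.8 CPM in Control. Neither of these genes overlapped between the groups, Jun higher and Jund lower in QYD, and neither passed, with log2 fold changes of 0.47 ± 0.19 and -0.18 ± 0.17 (edgeR, adjusted p = 0.0639 and 0.425). Jun passed with limma-voom (0.57, adjusted p = 0.0474) and in edgeR with no filter on low counts (0.53, adjusted p = 0.0427), and stood at 0.29 without Control 45 (adjusted p = 0.215 in edgeR). On library size alone both passed as higher, with Jun at 2.51 and Jund at 1.85. Atf3 stood at 2.08, 2.11 and 2.91 CPM in QYD, against 2.24, 0.764 and 1.53 CPM in Control, a value of 0.66 ± 0.41. Altogether 8 of the 9 genes did not overlap between the groups, against 52.5% of all genes.

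**Figure D4:**
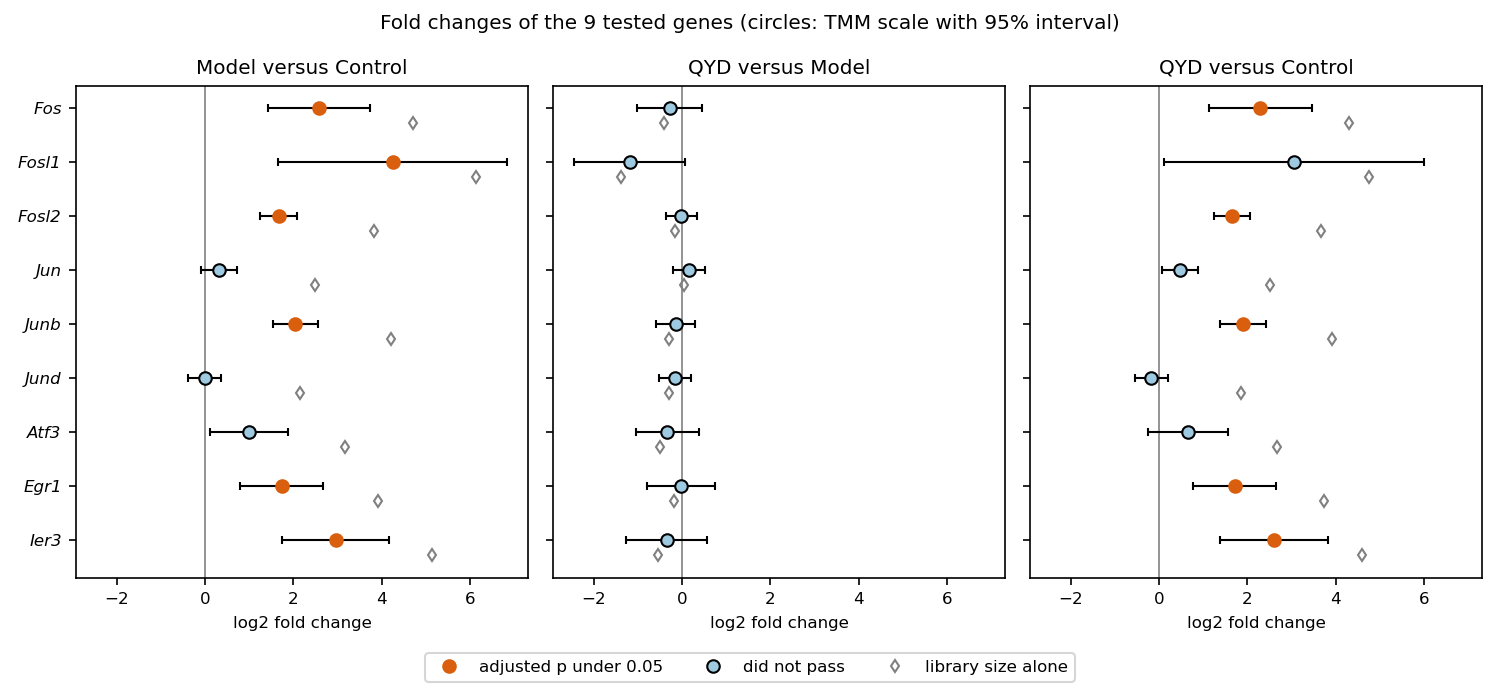
Log2 fold changes (horizontal axes) of the 9 tested genes in the 3 comparisons, with circles and 95% intervals on the TMM scale (orange where the adjusted p was under 0.05) and open diamonds on library size alone. Circles of Junb, Fosl2, Fos, Egr1 and Ier3 are orange in both comparisons with Control, no circle is orange in QYD versus Model, and the diamonds of Jun and Jund lie near 2 in the comparisons with Control.

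Further genes of the pathway were read from the same fit. Among 14 tested relatives in the leucine zipper family, 4 rose in Model versus Control and 1 fell (35.7% called, against 42.6% of all genes), with a median log2 fold change of 0.32, while on library size alone 14 passed as higher. Batf, a partner of Jun proteins in lymphocytes and other immune cells, rose by 2.00 ± 0.40, to 1.92 ± 0.354 CPM in Model, against 0.471 ± 0.313 CPM in Control (SD, n = 3). Jdp2, a dimerisation partner that represses AP-1, rose by 1.04 ± 0.31, and Atf7 by 0.53 ± 0.12. Mafk, a small Maf protein with no activation domain, fell by 0.39 on the log2 scale, against 1.76 on library size.

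Other immediate early genes moved in both directions. Of 29 tested, 7 rose and 4 fell in Model versus Control (37.9%, near the share of all genes), with a median of 0.32, and on library size alone 28 were higher and none lower. Ier5 rose by 1.77 ± 0.25 and the growth arrest gene Gadd45a by 1.92 ± 0.32. Nr4a2, an orphan nuclear receptor, stood at 1.24 ± 0.33 CPM in Model, against 5.70 ± 1.94 CPM in Control, a log2 fold change of -2.20 ± 0.29 that was -0.06 on library size. Myc, a growth factor-induced transcription factor, stood at 8.75 ± 2.28 CPM in Model, against 22.7 ± 6.08 CPM in Control, a log2 fold change of -1.37 ± 0.22 that turned to 0.80 on library size. In QYD versus Control 7 rose and 5 fell.

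Upstream, 8 of 26 tested kinases and factors of the MAP kinase and serum response route rose in Model versus Control and 3 fell (42.3%, near the share of all genes), with a median of 0.18, and on library size alone 25 were higher. Map3k8, a kinase activated by Toll-like receptor signals, rose by 1.96 ± 0.28, the ERK-driven kinase gene Rps6ka1 by 1.2 ± 0.17 and Mapk7 by 1.25 ± 0.23. Map2k2, a kinase just above ERK, fell by 0.67, against 1.48 on library size. Among 16 feedback genes, 4 rose and 3 fell (43.8%, likewise near it), with a median of 0.32, and on library size 15 were higher. Dusp1, a phosphatase that switches off MAP kinases, rose by 1.36 ± 0.23, and the ERK pathway inhibitor Spry4 by 1.48 ± 0.29. Spry1 fell by 1.11 and Dusp7 by 0.62, with 1.05 and 1.53 on library size.

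Of 16 tested genes known as AP-1 targets, 10 rose in Model versus Control and 2 fell (75.0%, against 42.6% of all genes). Their median was 2.07, the highest of these 5 lists, and on library size 15 were higher. The matrix metalloproteinase Mmp3 stood at 8.15 ± 0.552 CPM in Model, against 1.69 ± 0.663 CPM in Control, a log2 fold change of 2.26 ± 0.23. Ccl2, a monocyte-attracting chemokine, rose by 2.77 ± 0.38 and the adhesion receptor Cd44 by 2.38 ± 0.37. In QYD versus Control the counts were the same, 10 higher and 2 lower (75.0%, against 40.7% of all genes). In QYD versus Model no gene of these 5 lists passed in edgeR, and 0 of 14 relatives, 2 of 29 immediate early, 1 of 26 upstream, 1 of 16 feedback and 2 of 16 target genes had an unadjusted p below 0.05, against 5.85% of all genes.

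The tested genes were also set beside other genes of at least 5 CPM on average (7323 genes), leaving out predicted and clone names (Gm with digits, or ending in Rik). The measure was the root mean square difference of log2(CPM + 1) over the 9 libraries after centring each gene. The nearest profile to Junb was that of Bcl3 (0.15), and the nearest to Ier3 was Serpinb9 (0.161). Fosl2 lay nearest to Atp6v1b2 (0.0873), Fos to Pde4b (0.129), Egr1 to Ngp (0.308), Fosl1 to Nectin2 (0.158), Atf3 to Adamts9 (0.151), Jun to Prmt1 (0.0915) and Jund to Pogk (0.0838). The distance of the median gene was 0.929 from Junb and 0.33 from Jund. In Model versus Control Bcl3 rose by 2.53, Serpinb9 by 2.68, Pde4b by 1.73 and Nectin2 by 0.82, the last against 4.25 for Fosl1, since adding 1 CPM understates the change of genes near 0. Within the 9 genes, Jun and Jund were each nearest to the other (0.315), as were Fosl1 and Atf3 (0.234) and Fos and Fosl2 (0.282).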

How the data were processed

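Polyadenylated pancreas RNA of 9 mice was sequenced. Software listed by the submitters' processing notes comprised RSEM 1.2.12, Bowtie2 2.2.5 and HISAT2 2.0.4, with build GRCm38.p6 and no roles. Per the file headers the authors deposited read counts, TPM and FPKM for each library. The read counts deposited by the authors were handled like RSEM's expected counts, since they were not all whole numbers (93.5% were, at a tolerance of 1e-06). Expected counts were rounded to whole numbers, and the tests used R 4.3.3 with edgeR 4.0.16 (default expression filter, TMM, group as the sole term, 6 residual degrees of freedom), with Benjamini-Hochberg adjustment over 12828 genes at 0.05; the filter removed 4304. The common biological coefficient of variation was 0.175. SE is the log2 fold change over the square root of F. Counting intervals are exact binomial and cover counting error only. TPM, deposited by the authors, was used for shares and for levels between genes, and FPKM, likewise deposited, for an alternative. Whether mice of a group were handled separately is not stated, so p-values measure the spread between these libraries.

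The 10 genes and all lists were chosen with earlier results of these data known. All 10 are named; other lists give up to 4 genes with the smallest p in Model versus Control and a mean of at least 1 CPM, and each tested gene its nearest profile. A gene that this rule names is not reported here. Ccdc85b, Prdx2, Junos and Gm11175 were named after their overlap was seen. Gene names come from the deposited table, and coordinates, overlaps and promoters from RefSeq and GENCODE on GRCm38. Alternatives used RLE scaling, library size alone, TMM without the 50 most abundant genes, no filter, at least 5 CPM in 3 libraries, limma 3.58.1 (voom, weighting samples, and FPKM after adding 1 or 0.1 on the log2 scale, for genes reaching an FPKM of 1 in 3 libraries), DESeq2 1.42.0, the compared groups alone, an adjusted p of 0.1, and each library left out in turn. The kappa B motif was GGG, a purine, any 2 bases, 2 pyrimidines and CC; the CArG box was CC, 6 A or T, and GG.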

Additional observations from a re-analysis of the deposited data

How the results depend on the processing

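No paired analysis was possible because mouse numbers differ between the groups. Scaling by library size alone called 12185 genes in Model versus Control and 12155 in QYD versus Control, and 9 of 9 members in QYD versus Control. Limma on FPKM, which carries no composition factor, called 10079 (pseudocount 1) and 10068 (0.1) in Model versus Control, 10077 and 10059 in QYD versus Control, and 8 of 8 members in QYD versus Control with either pseudocount. Jund then stood at 2.14 (library size), 1.88 and 2.08 in Model versus Control and at 1.85, 1.64 and 1.83 in QYD versus Control; with no filter it stood at 0.047 in Model versus Control. In QYD versus Model, voom and limma with either FPKM pseudocount called 1 gene each, Hist2h2aa2, named after its value was seen, and Egr1 stood at 0.009 with voom. Leaving out 1 library at a time gave 5 to 7 members called in Model versus Control, 5 to 6 in QYD versus Control and 0 in QYD versus Model. Log2 fold changes then ran from -0.20 to 0.16 for Jund in Model versus Control, and in QYD versus Model from -0.13 to 0.083 for Fosl2, -0.25 to 0.078 for Junb, -0.34 to 0.029 for Jund, -0.21 to 0.33 for Egr1 and -0.68 to 0.37 for Ier3. The cause was not tested. With 3 mice a group, and 1 count of Fosl1 and 5 of Fosb in Control, depth limits what can be said of those 2 genes.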
